A study of Mus musculus with 12 samples.

Results

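Glycolysis and its hypoxia-driven neighbours were examined in bulk tongue RNA through 33 genes chosen by name. They comprised 3 glucose transporters, 10 genes of upper glycolysis, 8 of lower glycolysis, 4 that make or move lactate, 3 pyruvate dehydrogenase kinases and 5 further targets of the hypoxia response. All 33 were found among the 32498 named genes of the series, and all 33 passed the filter on low values. The series held 12 libraries, 6 from vehicle-treated and 6 from GA-treated C57BL/6 mice, with no animal numbers in the labels, so that p-values measure only the spread between these libraries. Mice of both groups had drunk 4NQO, a chemical that induces oral tumors, at 100 µg/mL for 16 weeks. From week 4, one group was gavaged 5 times a week with GA, the plant phenol gallic acid, at 100 mg/kg, and the other received only the vehicle, methyl cellulose with Tween-20. The labels name the material as tongue with tumor and tumor-associated cells, so each library mixed several tissues, and fewer cells of a type and less RNA per cell cannot be told apart.

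In glycolysis, a chain of cytosolic enzymes splits glucose into pyruvate, which is either oxidised in mitochondria or reduced to lactate and exported. Several steps are run by different isozymes in different tissues. Skeletal muscle uses the phosphofructokinase Pfkm, the mutase Pgam2, the enolase Eno3 and the transporter Slc2a4, and oxidative muscle also carries the lactate dehydrogenase Ldhb, whereas epithelia and tumors rely on Pfkl, Pfkp, Pgam1, Eno1, Ldha and Slc2a1. When oxygen is low, HIF transcription factors raise many genes of the second kind, along with Slc16a3, Adm, Car9, Ndrg1, Bnip3, Ankrd37 and Pdk1. The tongue is a muscle wrapped in stratified squamous epithelium, so both kinds can be measured in a single piece of tissue.

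Values are scaled FPKM, that is, reads divided by exon length and library total, then scaled between libraries. Recovered library totals spanned 18042558 to 21773208 reads in the vehicle group, and 21239964 to 25195787 reads in the GA group. The summed level of 12 skeletal muscle markers ran from 1527 scaled FPKM in Vehicle 1 to 12819 in Vehicle 3, and from 2170 in GA 6 to 9630 in GA 2. One of them, Tnnc2, had a median of 0 over the 12 libraries. Basal epithelium markers (8 genes) summed to between 4478 and 9473 with vehicle and between 2953 and 11701 with GA. Neutrophil markers (10 genes) summed to between 1136 and 2579 with vehicle and between 235 and 1836 with GA. The gland lipase Lipf exceeded 100 FPKM in Vehicle 3 (20090), Vehicle 5 (8765) and GA 2 (25476). Its highest level in the other libraries was 0.508 FPKM. Reads of Y-linked genes were present in Vehicle 1 to 4 and in GA 1, so that 4 vehicle libraries but 1 GA library carried them. Xist, expressed from the inactive X of females, had 7790 to 19147 reads in the libraries without them and at most 10 in the others. Sex read from these genes was thus unbalanced between the groups, and the main fits had no sex term.

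**Figure D1:**
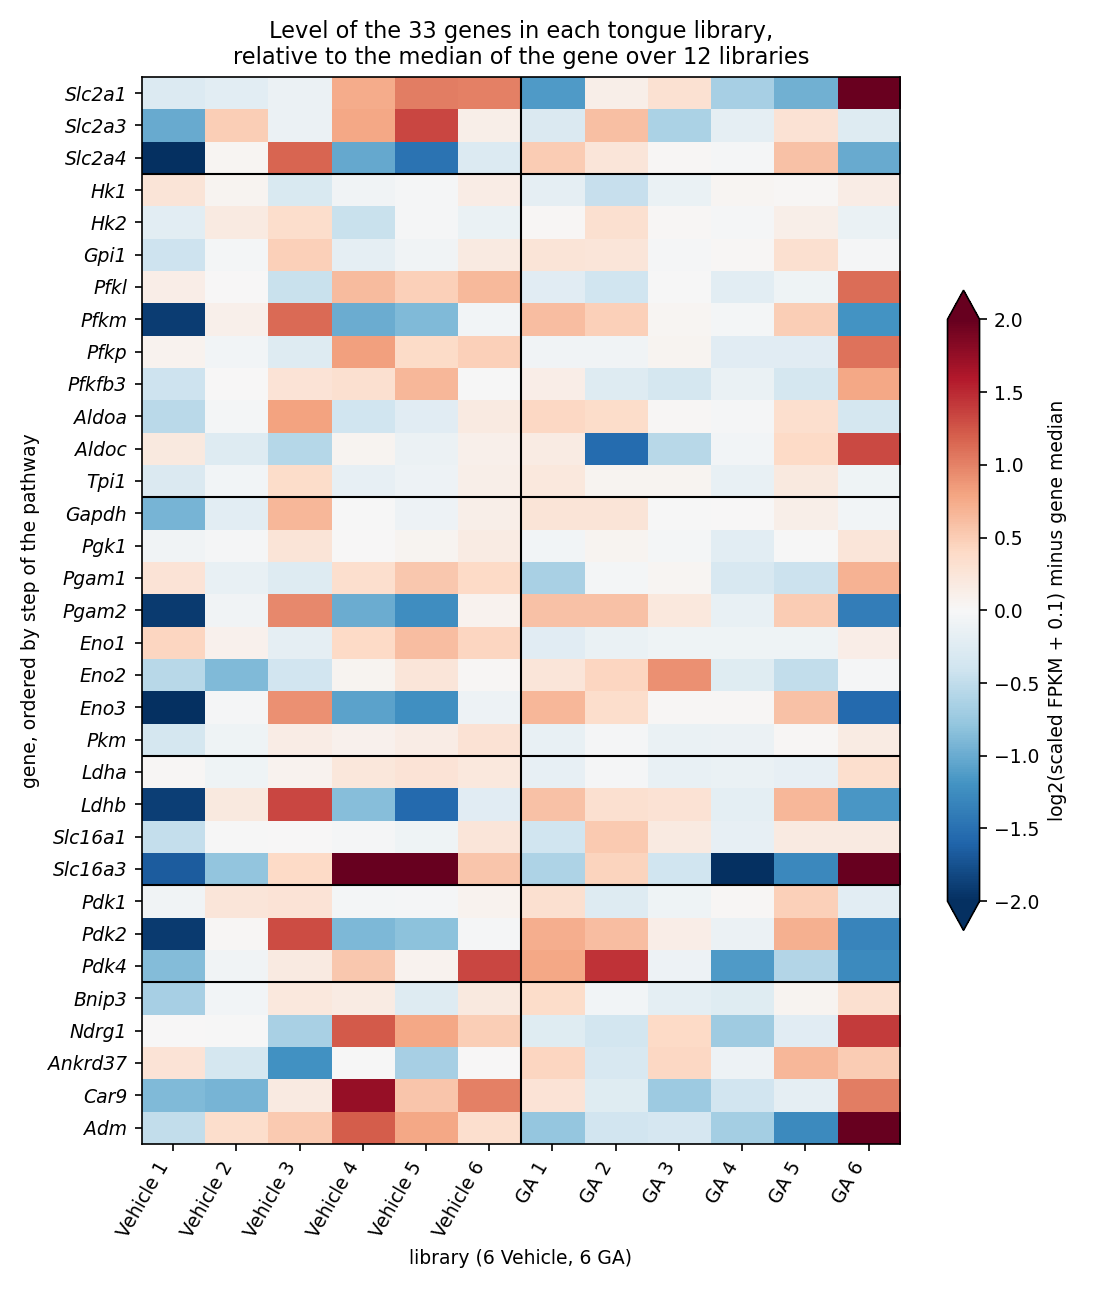
Heat map of the 33 genes (rows, ordered by step of the pathway, lines between steps) in the 12 libraries (columns), coloured by log2(scaled FPKM + 0.1) minus the median of the gene over all libraries, with colours saturating at 2 in either direction. Slc2a4, Pfkm, Pgam2, Eno3, Ldhb and Pdk2 were low in Vehicle 1 and GA 6 and high in Vehicle 3, whereas Slc2a1, Slc16a3 and Adm were high in GA 6.

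The first question was how muscle isozymes stood against the other forms of the same step. In most libraries the muscle form was the more abundant of the pair for phosphofructokinase and enolase, and Ldha exceeded Ldhb in all 12. For phosphoglycerate mutase, which moves the phosphate group within phosphoglycerate, neither form led throughout. Ldhb is counted here with the muscle forms, although Ldha also serves fast muscle, so that this pair does not set muscle against other tissues. The muscle forms differed several-fold between libraries of the same group, and the other forms varied less.

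Phosphofructokinase commits glucose to glycolysis. Pfkm (chr15:98092589-98132451, mm10), its muscle subunit, lay between 39.7 and 325 scaled FPKM with vehicle (median 111) and between 64.3 and 228 with GA (median 179). Pfkl (chr10:77986947-78010083), the liver-type subunit, had levels of 9.36 to 20.1 scaled FPKM with vehicle (median 15.9) and 9.65 to 27.7 with GA (median 11.5). Pfkp (chr13:6579768-6648777), the platelet-type subunit, had 5.40 to 11.4 scaled FPKM with vehicle (median 7.60) and 5.51 to 13.8 with GA (median 6.13). The groups overlapped for each of these subunits. Vehicle 3 held the highest Pfkm and the lowest Pfkl and Pfkp of its group, and GA 6 held the lowest Pfkm and the highest Pfkl and Pfkp of the GA group. The Pfkm to Pfkl ratio ran from 2.82 in Vehicle 1 to 34.4 in Vehicle 3 (vehicle median 5.61) and from 2.31 in GA 6 to 21.2 in GA 2 (GA median 14.95). The log2 ratio was 0.71 higher on average with GA (SE 0.73, n = 6 per group, exact two-sided permutation p = 0.348). Against Pfkp, the same ratio ran from 5.81 to 59.1 with vehicle and from 4.64 to 36.9 with GA, with a mean log2 difference of 0.65 (SE 0.70, n = 6 per group, exact permutation p = 0.364).

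Pgam2 (chr11:5801640-5803733), the muscle mutase, lay between 52.8 and 390 scaled FPKM with vehicle (median 145) and between 76.8 and 301 with GA (median 258). Its partner Pgam1 (chr19:41911923-41918660), the form of most other tissues, had 126 to 219 scaled FPKM with vehicle (median 187) and 96.6 to 245 with GA (median 135). Both forms overlapped between the groups. Vehicle 1, Vehicle 4, Vehicle 5 and GA 6 held more Pgam1 than Pgam2, and the other 8 libraries held more Pgam2. The Pgam2 to Pgam1 ratio spanned 0.288 to 3.09 with vehicle (median 0.742) and 0.314 to 3.12 with GA (median 1.74), a mean log2 difference of 0.90 (SE 0.71, n = 6 per group, exact permutation p = 0.232). Of the Pgam1 exon sequence, 36.2% of windows of 50 bases occur in other genes as well, pseudogenes among them, so its level is uncertain.

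Enolase makes phosphoenolpyruvate. Eno3 (chr11:70657202-70662513), the muscle enolase, lay between 102 and 775 scaled FPKM with vehicle (median 290) and between 140 and 649 with GA (median 470). Eno1 (chr4:150236721-150248879), the general enolase, had 70.7 to 122 scaled FPKM with vehicle (median 107) and 68.7 to 87.9 with GA (median 75.2). The groups overlapped for both, and Vehicle 1 was the only library of the 12 with less Eno3 than Eno1. The Eno3 to Eno1 ratio spanned 0.942 to 10.95 with vehicle (median 2.57) and 1.59 to 9.44 with GA (median 6.30). Its log2 value was 0.97 higher on average with GA (SE 0.65, n = 6 per group, exact permutation p = 0.165). A second row that carries the symbol Eno1 came closer to whole reads with the exon length of its retrogene copy Eno1b than with its own, and was not used, and 26.0% of the windows of Eno1 itself are shared with other genes. The neuronal enolase Eno2 was near the limit of the data, with 9 to 70 reads per library and levels of 0.102 to 0.342 scaled FPKM with vehicle (median 0.235) and 0.165 to 0.603 with GA (median 0.305).

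Lactate dehydrogenase converts pyruvate and lactate into each other. Ldhb (chr6:142490249-142507957), the heart-type subunit, lay between 20.6 and 192 scaled FPKM with vehicle (median 53.5) and between 33.9 and 121 with GA (median 93.9). Ldha (chr7:46841475-46855627), the subunit of fast muscle, tumors and the hypoxia response, had 245 to 312 scaled FPKM with vehicle (median 287) and 231 to 327 with GA (median 235). Ldha thus varied 1.42-fold over the 12 libraries and Ldhb 9.32-fold, and the groups overlapped for both. The Ldhb to Ldha ratio spanned 0.0786 to 0.701 with vehicle (median 0.173) and 0.104 to 0.524 with GA (median 0.384), a mean log2 difference of 0.75 (SE 0.62, n = 6 per group, exact permutation p = 0.253). Over the 5 ratios, the Benjamini-Hochberg adjusted p was 0.364 for each, and the smallest p that the exact test can give for 6 against 6 libraries is 0.00216. In each of the 5 ratios, 5 of 6 GA libraries stood above the vehicle median, and the GA library below it was GA 6. The 5 ratios are not independent of each other, since the same 12 libraries enter all of them and Pfkm stands in 2. Leaving out 1 library took the mean log2 difference lowest without Vehicle 1, to 0.44 for Pfkm to Pfkl, 0.39 for Pfkm to Pfkp, 0.60 for Pgam2 to Pgam1, 0.66 for Eno3 to Eno1 and 0.49 for Ldhb to Ldha, and highest to 1.18, 1.10 and 1.35 without GA 6 and to 1.37 and 1.12 without Vehicle 3, in the same order.

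**Figure D2:**
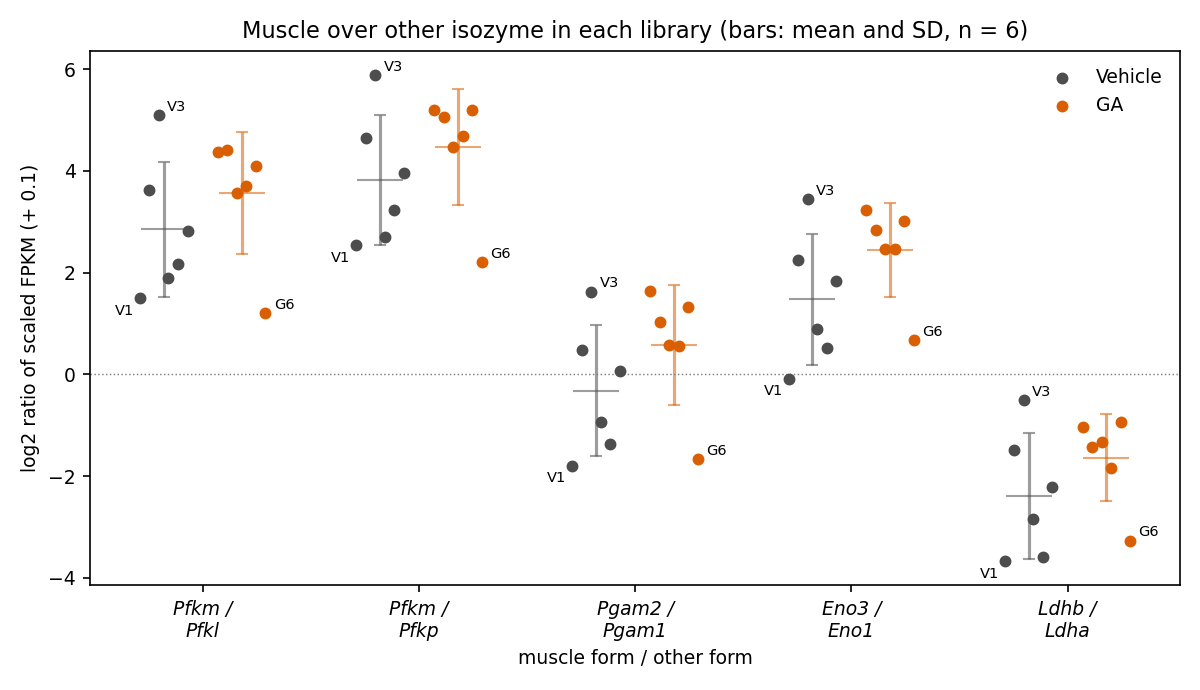
Log2 ratio of the form counted as muscle to the other form of 5 isozyme pairs in each library, with scaled FPKM + 0.1 in both terms. Ldhb is counted as muscle, although Ldha also serves fast muscle. Grey points are the 6 Vehicle and orange points the 6 GA libraries, and bars show the mean and SD. In all 5 pairs Vehicle 1 (V1) was the lowest and Vehicle 3 (V3) the highest vehicle library, and GA 6 (G6) was the lowest GA library.

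The promoters of the opposed lactate dehydrogenase genes are shown to set the letters of the HIF core motif beside those of a loose form of a muscle motif. ACGTG and GCGTG, the forms of the HIF core, were searched on both strands. ACGTG lies within CACGTG, the E-box of other factors, so that a CACGTG counts once on each strand. CTANNNNTAG is looser than the core recognised by MEF2 factors of muscle, which takes only A or T in the N positions. It reads the same on both strands. Both windows are the 250 bases before the annotated start in RefSeq (GRCm38.p6), 5′ to 3′ along the gene, with matches of ACGTG (Ldha) or CTANNNNTAG (Ldhb) in capitals, where CACGT is ACGTG on the other strand. The Ldha window is chr7:46845554-46845803 (plus strand) and holds 5 matches of ACGTG over both strands. The Ldhb window is chr6:142507958-142508207 (minus strand) and holds 2 matches of CTANNNNTAG and 1 of GCGTG, which is left in lower case. Both matches of CTANNNNTAG have G or C among the N positions, so neither is the MEF2 core. A further Ldha window, chr7:46846832-46847081 (plus strand), holds 0 matches of ACGTG and 1 of GCGTG and is not printed.
Ldha: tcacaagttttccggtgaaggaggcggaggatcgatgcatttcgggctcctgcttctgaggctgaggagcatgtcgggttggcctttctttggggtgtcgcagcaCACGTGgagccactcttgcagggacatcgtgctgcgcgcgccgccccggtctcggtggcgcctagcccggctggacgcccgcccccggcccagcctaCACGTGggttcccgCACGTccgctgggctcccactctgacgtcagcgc
Ldhb: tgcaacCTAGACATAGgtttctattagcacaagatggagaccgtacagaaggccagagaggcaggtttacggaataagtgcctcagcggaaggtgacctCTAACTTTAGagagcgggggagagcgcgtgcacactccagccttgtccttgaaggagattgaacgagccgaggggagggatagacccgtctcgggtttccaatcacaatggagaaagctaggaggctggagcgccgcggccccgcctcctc
Over the 30 of 33 genes with an entry, which had 44 windows, ACGTG occurred in 18 windows (40.9%) of 15 genes, against 16.6% of the 32851 windows in the table. GCGTG occurred in 23 windows (52.3%) of 19 genes, against 28.2% of all windows. CTANNNNTAG occurred in 1 window of these genes (2.27%), that of Ldhb, against 3.20% of all windows. The contrast of Ldha and Ldhb was not general. A Pfkm window and a Pdk2 window each held 2 matches of ACGTG, whereas Pfkl, Pfkp and Eno1 held 0 in every window. Pgam1 held 1, and Pgam2 and Eno3 held 0. All of these are counts of letters and not measured binding.

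The next question was which genes followed the muscle content of a library inside the groups. A muscle level was taken as the mean log2 level of the 11 muscle markers that passed the filter, none of them among the 33 genes, and a slope on it was fitted for every gene with limma together with the group. A slope of 1 means that a gene doubled wherever the muscle markers doubled. Of the 33 genes, 17 had a slope with an adjusted p below 0.1, where 29.3% of all 16849 tested genes did. In 12 genes the level rose with the muscle level (16.0% of all genes did) and in 5 it fell (13.3% of all genes did). The median slope was 0.09 over the 33 genes and -0.03 over all tested genes.

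The steepest slopes belonged to genes of muscle fuel use. Pdk2 (chr11:95026258-95041354), a kinase that switches pyruvate dehydrogenase off, lay between 8.999 and 84.4 scaled FPKM with vehicle (median 26.5) and between 13.6 and 56.7 with GA (median 44.9). Its slope was 0.97 (SE 0.11, limma adjusted p = 0.000205). The slopes of Pgam2, Ldhb, Eno3 and Pfkm, whose levels are given above, were 0.91, 0.90, 0.90 and 0.89 (limma adjusted p between 0.000344 for Pfkm and 0.00281 for Ldhb). Slc2a4 (chr11:69942539-69948188), the insulin-dependent transporter GLUT4, had 8.91 to 81.0 scaled FPKM with vehicle (median 23.8) and 18.04 to 54.3 with GA (median 39.99), with a slope of 0.86 (SE 0.14). For all of these genes Vehicle 1 was the lowest and Vehicle 3 the highest of the 12 libraries. Pdk4, the fasting-induced kinase of the same family, had a slope of 0.65 (SE 0.22, limma adjusted p = 0.0604), yet its highest level was 50.1 scaled FPKM in GA 2 and its lowest 7.55 in GA 6.

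Other enzymes whose level rose with the muscle level had shallower slopes. Aldoa, the aldolase of muscle and many other tissues, had 304 to 779 scaled FPKM with vehicle and 347 to 592 with GA, and a slope of 0.41 (SE 0.06). The slopes of Gapdh, Gpi1, Hk2 and Tpi1 were 0.36, 0.24, 0.19 and 0.18, also called. Hk2 and Gpi1 carry out the first and second step of the chain, phosphorylation of glucose and its isomerisation, and Tpi1 and Gapdh handle the triose phosphates. Gapdh stood at only 12.3 to 37.1 scaled FPKM, and since 25.1% of its windows occur in other genes, 213 pseudogenes among them, and only uniquely mapped reads were counted, its level is uncertain.

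In the other direction, 5 genes fell with the muscle level. Aldoc, the brain-type aldolase, lay between 1.84 and 3.21 scaled FPKM with vehicle (median 2.73) and between 0.892 and 7.15 with GA (median 2.91), and had the steepest fall, with a slope of -0.50 (SE 0.18, limma adjusted p = 0.0685). Ankrd37, a small ankyrin repeat protein induced by hypoxia, had a slope of -0.36 (SE 0.12), Pfkl one of -0.33 (SE 0.13) and Eno1 one of -0.17 (SE 0.06). The hexokinase Hk1, which serves most tissues, had 17.9 to 26.3 scaled FPKM with vehicle (median 22.2) and 16.0 to 24.6 with GA (median 21.3), and a slope of -0.19 (SE 0.05). The other 16 genes did not pass, with slopes from -0.40 for Ndrg1 to 0.24 for Slc2a3. Pkm, the last enzyme of the chain, and Pgk1 were among the steadiest of them, with 202 to 317 and 152 to 209 scaled FPKM over all 12 libraries, although 53.9% of the windows of Pgk1 and 25.8% of those of Pkm are shared with other genes.

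These calls rested in part on Vehicle 3, the library with the most muscle, and the falling calls also on GA 6. Without Vehicle 3 the count was 11 of 33 (14.5% of all genes), 1 of them falling (Hk1), and without GA 6 it was 15 (28.7%), 2 of them falling (Hk1 and Ankrd37). Pfkl was the least stable, with a slope of -0.19 without GA 6 and no call in 16 of 29 alternatives. With the level of differentiated epithelium markers added to the fit, the count was 20 (27% of all genes), 9 of them falling. Hk1, Aldoc and Ankrd37 were then no longer called. Without GA 2 the count was 13 (25.2%), without Vehicle 1, the library with the least muscle, 17 (23.1%), without the 3 libraries with high Lipf it was 10, all rising (13.0%), and it was 0 when 7 libraries, those that lack Y-linked reads, were fitted alone, where 0 genes of any kind were called.

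**Figure D3:**
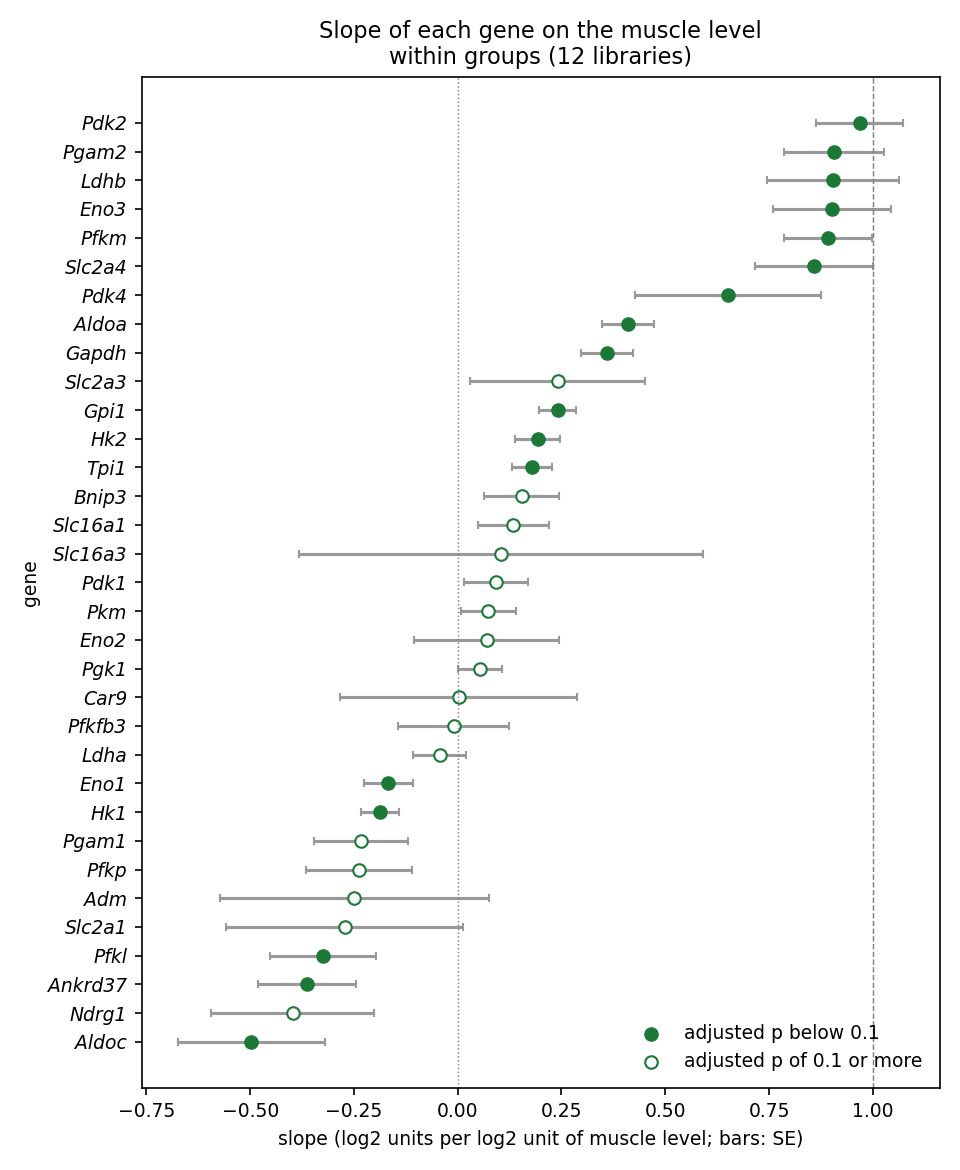
Slope of each of the 33 genes on the muscle level, in log2 units per log2 unit, from the limma fit with group and muscle level over 12 libraries; bars are SE, filled points have an adjusted p below 0.1, and the dashed line marks a slope of 1. Slc2a4, Pfkm, Eno3, Ldhb, Pgam2 and Pdk2 lie between 0.86 and 0.97, and Aldoc is lowest at -0.50.

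The same fit on a neutrophil level, the mean log2 level of the 10 neutrophil markers, called 0 of the 33 genes in limma (2.72% of all genes were called). At an unadjusted p below 0.05 there were 2, and the share of all genes at that limit was not computed. These were Slc2a3, the transporter GLUT3 of leukocytes and neurons, and Slc16a3, the lactate exporter MCT4. Slc2a3 had 0.132 to 1.08 scaled FPKM with vehicle (median 0.478) and 0.201 to 0.603 with GA (median 0.300), from 17 to 170 reads per library, and a slope of 0.38 (SE 0.10, limma adjusted p = 0.111). Its highest library was Vehicle 5, which also held the highest neutrophil level (4.71 on the log2 scale), although the neutrophil sum was highest in Vehicle 6, whose level was 1.05. The slope of Slc16a3 was 0.74 (SE 0.25, limma adjusted p = 0.208).

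GA 6 was the library in which many genes of the hypoxic and epithelial kind stood highest, though not all. It ranked 2 of 12 for Car9, Bnip3 and Ankrd37, 5 for Eno1 and 11 for Pdk1. It was the highest of the 12 libraries for 10 of the 33 genes (30.3%) and for 15.2% of all tested genes. It was the highest or second highest for 16 of the 33, a count for which no share of all genes was computed. The 10 genes were Slc2a1, Adm, Slc16a3, Ndrg1, Pfkl, Pfkp, Pfkfb3, Aldoc, Pgam1 and Ldha. Vehicle 3 was highest for 12 other genes (36.4%, against 14.5% of all genes), and Vehicle 1 was lowest for 15 of 33 (against 21.0% of all genes).

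Slc2a1 (chr4:119108711-119137983), the glucose transporter GLUT1 of epithelia and tumors, lay between 37.4 and 92.3 scaled FPKM with vehicle (median 58.7) and between 20.4 and 178 with GA (median 38.7). GA 6 stood at 178, and the next GA library, GA 3, at 56.0. Ordered from the top, the libraries after GA 6 were Vehicle 5 (92.3), Vehicle 6 (90.7) and Vehicle 4 (75.8), and the lowest was GA 1. Adm (chr7:110627661-110629820), which encodes the vasodilator peptide adrenomedullin, lay between 3.71 and 12.4 scaled FPKM with vehicle (median 7.18) and between 2.12 and 30.8 with GA (median 3.64). The other 5 GA libraries held 2.12 to 4.15 scaled FPKM of Adm, and GA 6 was 9.48 times their median and 7.42 times the median of the other 11 libraries. Slc16a3 (chr11:120948480-120960868) lay between 0.687 and 11.2 scaled FPKM with vehicle (median 3.37) and between 0.465 and 11.6 with GA (median 1.66). Here GA 6 did not stand alone, as Vehicle 4 (11.2) and Vehicle 5 (10.8) were nearly as high.

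Ndrg1 (chr15:66929318-66969640), a stress-responsive gene of differentiating epithelium, had 10.1 to 37.4 scaled FPKM with vehicle (median 19.3) and 9.68 to 42.3 with GA (median 13.5), and again Vehicle 4 was second to GA 6. Pfkfb3 makes the sugar bisphosphate that activates phosphofructokinase, and had 2.06 to 4.45 scaled FPKM with vehicle (median 3.10) and 2.16 to 4.79 with GA (median 2.41). For Pfkl and Pfkp, GA 6 stood at 2.19 and 2.22 times the median of the other 11 libraries, for Pgam1 at 1.66 times and for Ldha at 1.28 times. Aldoc in GA 6 (7.15 scaled FPKM) was followed by GA 5 (3.70).

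Outside the 33 genes, GA 6 was highest for 8 of 19 tested genes of a second list of hypoxia targets, among them Vegfa (38.7 against at most 27.9 scaled FPKM in the others), Car12 (51.2 against 44.1), Ddit4 (63.0 against 52.5) and Fam162a (545 against 384), named here after their values had been seen. Others of the list stood low there, and GA 6 ranked 11 of 12 for Egln1 and Mxi1. Beside this, GA 6 held the second lowest muscle marker sum (2170 scaled FPKM), the highest basal epithelium sum (11701, with 6 of 8 markers highest there), the lowest fibroblast sum (37.6) and the second highest sum of proliferation markers (106). Its differentiated epithelium sum ranked only 7 of 12, with 0 of 8 markers highest there. Its neutrophil sum ranked 6 of 12, its total of 25195787 reads was the largest, and its scaling factor of 1.05 lay within the range of the others. The part of these in the levels of GA 6 was not tested.

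**Figure D4:**
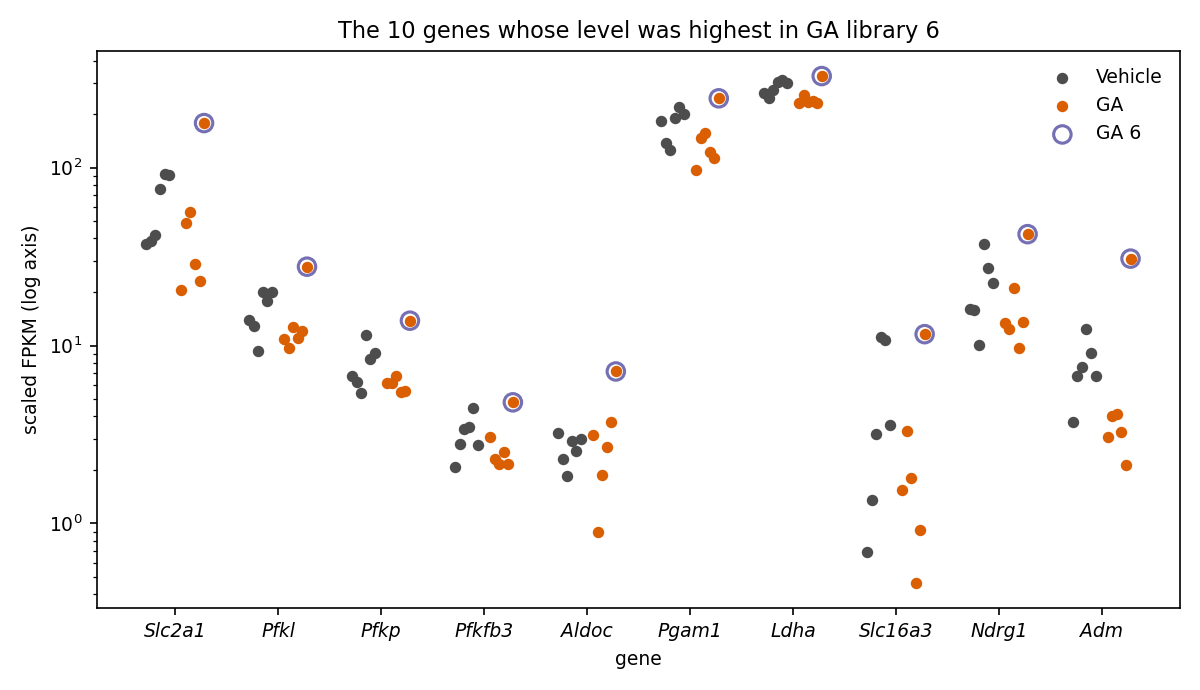
Scaled FPKM (log axis) of the 10 genes whose highest library was GA 6, with 6 Vehicle (grey) and 6 GA (orange) libraries per gene and GA 6 ringed. GA 6 lies far above the other GA libraries for Slc2a1, Slc16a3 and Adm, and Vehicle 4 comes close to it for Slc16a3 and Ndrg1.

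Behind GA 6, the same vehicle libraries recurred. The 4 highest libraries of Slc2a1 were GA 6 and Vehicle 4, 5 and 6, and these 4 were also the highest for 7 of the other 32 genes (21.9%), namely Pfkl, Pfkp, Pgam1, Ldha, Slc16a3, Ndrg1 and Car9, against 2.29% of all tested genes. Of the 19 other hypoxia targets, 1 (Car12) had the same 4. These counts were made after the values had been seen. Car9, a carbonic anhydrase at the cell surface, was sparse, with 8 to 93 reads per library, and its levels were 0.186 to 1.72 scaled FPKM with vehicle and 0.230 to 1.01 with GA. Among the HIF subunits, Hif1a had the same 4 highest libraries, with 54.2 to 115 scaled FPKM with vehicle (median 81.0) and 21.5 to 92.0 with GA (median 46.4), while Epas1 and Arnt did not. The basal epithelium sum was likewise highest in these 4 libraries (7454 to 11701 scaled FPKM, and at most 5772 in the others), and its part in the pattern was not tested. The differentiated epithelium sum was not, with ranks of 10, 9 and 2 in Vehicle 4, 5 and 6 and of 7 in GA 6.

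The promoters of Slc2a1 and Slc16a3, the transporters that bring glucose in and take lactate out, are shown for the same HIF core motif, ACGTG, in capitals. The windows are chr4:119108495-119108744 for Slc2a1 and chr11:120948817-120949066 for Slc16a3, both on the plus strand of GRCm38.p6 and taken from RefSeq.
Slc2a1: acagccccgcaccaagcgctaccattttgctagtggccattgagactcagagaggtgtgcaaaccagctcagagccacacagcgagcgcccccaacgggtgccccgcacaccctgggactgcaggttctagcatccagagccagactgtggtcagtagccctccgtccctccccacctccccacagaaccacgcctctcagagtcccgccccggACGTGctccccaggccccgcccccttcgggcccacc
Slc16a3: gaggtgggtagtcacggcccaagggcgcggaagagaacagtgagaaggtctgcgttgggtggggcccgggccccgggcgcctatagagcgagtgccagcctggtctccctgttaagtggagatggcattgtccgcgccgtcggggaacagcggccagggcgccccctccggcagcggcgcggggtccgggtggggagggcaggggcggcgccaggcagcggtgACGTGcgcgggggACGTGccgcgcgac
Slc2a1 held 1 match close to the start and Slc16a3 held 2, and Slc2a1 also held 1 GCGTG, left in lower case. Of the 10 genes with their highest level in GA 6, Slc2a1, Slc16a3, Pfkfb3, Pgam1 and Ldha had ACGTG in at least 1 window, while Ndrg1 had no entry in the table. That is 5 of 9 with an entry, beside 15 of 30 over all members.

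The main comparison of the study was GA against vehicle. In limma on log2 scaled FPKM, 0 of the 33 genes passed an adjusted p below 0.1 with a log2 fold change of 0.58 or more in size, as did 0 of 16849 genes (0.00%), and the smallest adjusted p of any gene was 0.999. The paper fitted gene counts with edgeR and, at the same limits, reported changed genes, with Hif1a among the lower ones. The cause of this difference was not tested. An unadjusted p below 0.05 was seen for 2 of the 33, Eno1 and Ankrd37, and for 366 of all genes (2.17%). The mean log2 level was higher with GA in 16 genes and lower in 17 (46.3% of all genes were higher), and the median log2 fold change was -0.03, against -0.02 for all tested genes. In 6 of the 33 the log2 fold change reached 0.58 in size (8.52% of all genes), and for 0 of the 33 were the groups without overlap (0.0653% of all genes).

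Eno1, whose levels are given above, had 6 of 6 GA libraries below the vehicle median, and its log2 fold change was -0.38 (SE 0.13, limma unadjusted p = 0.0138, adjusted p = 0.999). Vehicle 2 and Vehicle 3, at 84.5 and 70.7 scaled FPKM, overlapped with the GA range. Ankrd37 (chr8:45996902-46005707) had 0.611 to 1.88 scaled FPKM with vehicle (median 1.36) and 1.22 to 2.52 with GA (median 2.11), from 18 to 90 reads per library. For Ankrd37, 5 of 6 GA libraries stood above the vehicle median, and the log2 fold change was 0.60 (SE 0.26, limma unadjusted p = 0.0406, adjusted p = 0.999). Both genes thus had a low unadjusted p that did not survive adjustment over all genes.

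The other genes with log2 fold changes of such size were Slc16a3 (-0.76, SE 0.79), Slc2a4 (0.65, SE 0.47), Adm (-0.61, SE 0.54), Eno3 (0.60, SE 0.49) and Pgam2 (0.59, SE 0.48). Their standard errors came to most of the difference or, for Slc16a3, exceeded it. Single libraries moved these values with no member called. The log2 fold change of Adm was -1.14 without GA 6 and -0.38 without GA 5. That of Slc16a3 was -1.27 without GA 6 and -0.39 without GA 4, and that of Slc2a1 (-0.42) was -0.83 without GA 6 and -0.21 without GA 1. Other alternatives moved 2 of these farther. Slc16a3 ran from -1.57 to -0.09 over all alternatives, and Slc2a1 was -0.98 with a sex term. Those of Slc2a4, Eno3 and Pgam2 were 0.37, 0.31 and 0.32 without Vehicle 1, and 1.01 for Slc2a4 without Vehicle 3, 0.91 for Eno3 without GA 6 and 0.89 for Pgam2 without Vehicle 3. For the remaining genes of the 6 smallest p-values, the log2 fold changes were -0.17 for Ldha (SE 0.12), -0.30 for Pgam1 (SE 0.22) and 0.39 for Eno2 (SE 0.29).

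By step, the glucose transporters had a median log2 fold change of -0.34, upper glycolysis 0.06, lower glycolysis 0.06, the lactate genes -0.01, the pyruvate dehydrogenase kinases -0.03 and the hypoxia targets -0.27. In the 5 isozyme pairs the forms counted as muscle, Ldhb among them, had positive and their partners negative values. Examples were Pfkm (0.50) beside Pfkl (-0.21) and Pfkp (-0.15), and Ldhb (0.58) beside Ldha. Slc16a1, the lactate and pyruvate carrier MCT1, had 12.9 to 25.9 scaled FPKM over the 12 libraries and a log2 fold change of 0.14 (SE 0.16). Pdk1, the hypoxia-induced kinase of pyruvate dehydrogenase, had 6.47 to 10.9 scaled FPKM and a log2 fold change of -0.03 (SE 0.14). Bnip3, which acts in the removal of mitochondria, had 16.8 to 34.5 scaled FPKM and a log2 fold change of 0.11 (SE 0.17), with 47.2% of its windows shared with other genes.

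**Figure D5:**
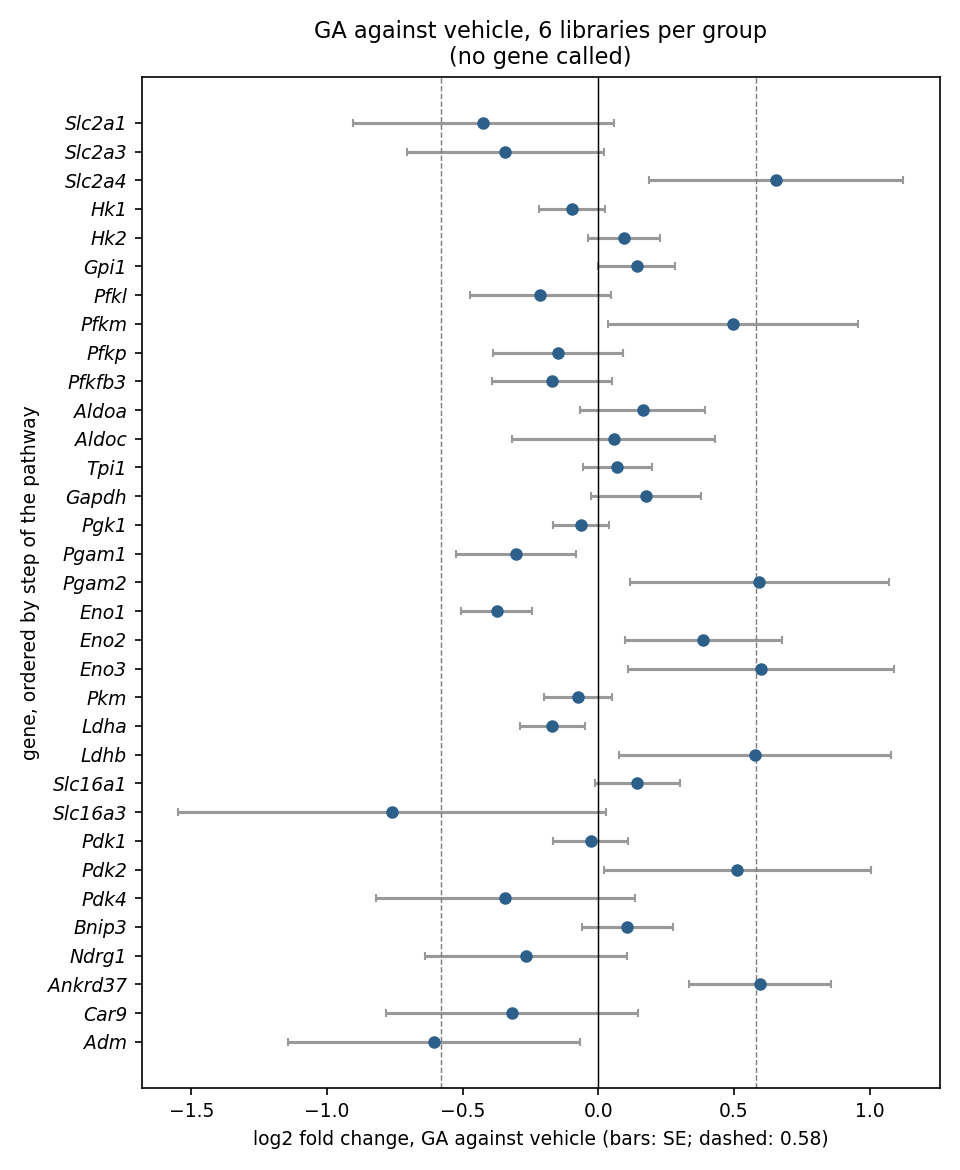
Log2 fold change of the 33 genes with GA against vehicle (6 libraries per group, limma on log2(scaled FPKM + 0.1)); bars are SE and dashed lines mark 0.58 in either direction. Eno1 (-0.38) and Ankrd37 (0.60) had the smallest unadjusted p, and no gene was called.

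The rest of the pathway was read from 6 further lists with none of the 33 genes in them. None of their genes was called for GA against vehicle, and none had an unadjusted p below 0.05. Of the 11 genes of pyruvate dehydrogenase and pyruvate import, which carry pyruvate into mitochondrial oxidation, 10 had a higher mean log2 level with GA (median log2 fold change 0.33), with Dlat at 0.34 (SE 0.27) and Dld at 0.28 (SE 0.25), and 9 rose with the muscle level. Of the 10 glycogen genes, 8 had a higher mean log2 level (median 0.34), with Ugp2 at 0.50 (SE 0.27) and Pygl at -0.26 (SE 0.17), and 7 rose with the muscle level. The 8 pentose phosphate genes had a median of -0.12, with Taldo1 at -0.18 (SE 0.13) and Pgd at -0.18 (SE 0.16), and 2 of them fell with the muscle level while 1 rose. The 15 other glycolysis genes had a median of -0.01, with Adpgk at -0.19 (SE 0.15) and Galm at -0.14 (SE 0.15), and the 5 gluconeogenesis genes one of -0.12, with G6pc3 at 0.27 (SE 0.18) and Fbp2 at -0.27 (SE 0.32). Of the 19 other hypoxia targets, 14 had a lower mean log2 level with GA (median -0.10), with Mxi1 at -0.26 (SE 0.14) and Vldlr at 0.54 (SE 0.31). Hif1a itself had a log2 fold change of -0.87 (SE 0.37, limma unadjusted p = 0.035, adjusted p = 0.999), Epas1 one of 0.04 and Arnt one of -0.18.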

How the data were processed

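Bulk RNA-seq of tongue tissue was analysed in 6 Vehicle and 6 GA libraries, made with a SMARTER mRNA-Seq kit from RNeasy Plus RNA and grouped by the labels. The authors used HISAT2 for alignment to mm10 and featureCounts for gene counts of uniquely mapped reads, and deposited FPKM values; the strand setting is not given in the sources used here. Of the 55463 rows per file, 22965 had no gene name and were left out. The 33 genes and all gene lists were chosen with earlier results of these data known. Each symbol was matched to GENCODE M21 (29222 of 32498 named rows to a single gene), and library totals were recovered from low FPKM values, of which 97.8% to 98.3% gave whole reads within 0.02; this needed 17.1 to 24.2 bases to be taken off the exon lengths.

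Scaling used trimmed means of log ratios without weights (30% and 5% trimmed). The 16849 genes whose mean reached 0.1 FPKM were fitted with limma 3.58.1 in R 4.3.3 (eBayes with trend) on log2(scaled FPKM + 0.1), a scale that understates changes of low genes. P-values were adjusted by Benjamini-Hochberg over all genes, and calls required an adjusted p below 0.1 together with a log2 fold change of 0.58 or more in size, or, for slopes, the adjusted p alone. Log2 ratios of isozyme pairs were compared by exact permutation tests. Other values were computed in Python 3.11.15. The fits were tested on simulated data before use.

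Every member was named. Values per group were given for the genes of the isozyme pairs, the 6 smallest p-values, the 5 steepest called slopes in each direction and those highest in GA 6, and from each further pathway list the 2 genes with the smallest p-values. Deviations of libraries with the same number from their group means correlated at -0.37 to 0.08, so the numbers were not taken as pairs. Alternatives changed the pseudocount, filter, scaling, test, covariates and libraries; only the restriction to 7 libraries without Y-linked reads was added after the data had been seen. Sequences are from RefSeq (GRCm38.p6), and shared exon windows of 50 bases were counted in GENCODE transcripts. A few marker symbols had no row and were left out.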

Additional observations from a re-analysis of the deposited data

Results flagged for a closer look

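In 14 of 76 groups of 6 values (18.4%), the highest or lowest library stood farther from its neighbour than Dixon's critical value for 6 samples allows, where chance flags about 1 in 20 groups of normally distributed values. Gene levels entered on the linear scale. GA 6 had been picked out as a high library beforehand and gave 13 of the 14, so these flags restate that choice and are no test of it. In the GA group GA 6 was the high library for 9 genes. It stood at 178 scaled FPKM for Slc2a1 (next 56.0), 27.7 for Pfkl (next 12.7), 13.8 for Pfkp (next 6.71), 4.79 for Pfkfb3 (next 3.07), 87.9 for Eno1 (next 75.7), 327 for Ldha (next 256), 11.6 for Slc16a3 (next 3.31), 42.3 for Ndrg1 (next 21.1) and 30.8 for Adm (next 4.15). It was also the low library of the GA group for the log2 ratios of Pfkm to Pfkl (1.21, next 3.57), Pfkm to Pfkp (2.21, next 4.48), Pgam2 to Pgam1 (-1.67, next 0.56) and Eno3 to Eno1 (0.67, next 2.47). Among vehicle libraries, Vehicle 3 stood apart for Pdk2, at 84.4 scaled FPKM (next 34.7). The genes share the same libraries, so these flags are not independent of each other.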

How the results depend on the processing

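For GA against vehicle, 0 of 16849 genes and 0 of the 33 were called in limma, and the exceptions were 1 gene without Vehicle 4 (0 to 1 over the libraries left out in turn) and, at an unadjusted p below 0.05, 366 genes and 2 of the 33. The 5 isozyme ratios kept a positive difference and stayed short of the threshold under each of their 21 alternatives. The 17 calls on the muscle level were 3 under the replicate block (Pfkm, Gapdh and Pdk2; 2.44% of all genes), 10 without the 3 libraries with high Lipf, 0 among the 7 libraries without Y-linked reads (an alternative added after the data had been seen) and 11 to 18 with a library left out, the lowest without Vehicle 3. They rose to 19 with a neutrophil level covariate (31.7% of all genes), 7 of them falling. With a differentiated epithelium covariate they were 20 (27%), 9 of them falling. That covariate removed the calls of Hk1, Aldoc, Pdk4 and Ankrd37. It added calls of Slc2a1, Pfkp, Pfkfb3, Pgam1, Slc16a3, Ndrg1 and Adm. The block changed no other count of calls except on the neutrophil level, where 1 gene (Slc16a3) was called in place of 0 (1.31% of all genes). On that level 1 gene was called with a pseudocount of 1 (2.55% of all genes) or no scaling (3.58%). The count was also 1 with limma without trend (2.71%), limma-voom on recovered reads (2.71%) or a differentiated epithelium covariate (0.926%). It was 4 with a muscle level covariate (6.80%) and 5 with array weights (24.1%). At an unadjusted p below 0.05 it was 2, with no share of all genes computed. With a library left out it was 0 to 2, namely 1 without Vehicle 3 (5.7%) or GA 5 (1.74%) and 2 without GA 6 (5.43%). Log2 fold changes with GA turned sign for 7 genes. Aldoc (0.06) was -0.095 with array weights, -0.11 with a neutrophil level covariate, -0.072 among the 7 libraries and -0.22 to 0.36 with a library left out. Pdk1 (-0.03) was 0.061 with a sex term, 0.056 without the libraries with high Lipf and -0.12 to 0.033 with a library left out. Bnip3 (0.11) was -0.046 with array weights and -0.013 to 0.16 with a library left out. Slc2a3 (-0.34) was 0.00020 with a neutrophil level covariate, Pfkfb3 (-0.17) 0.038 without the libraries with high Lipf, Eno2 (0.39) -0.019 among the 7 libraries and Slc16a1 (0.14) -0.029 with a sex term. The cause of these moves was not tested. Depth limits Eno2, Car9, Ankrd37 and Slc2a3, which had fewer than 200 reads per library.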
